A study of Mus musculus with 18 samples.

Results

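Coldspots of AID are the cytosines in the motif SYC, where S is C or G and Y is C or T, together with the guanines in the mirror motif GRS on the other strand, where R is A or G. They were followed here in a 679-base stretch of mOrangeSTOP, a form of the orange fluorescent protein gene, covering positions 45 to 723 of its coding sequence. Members were chosen by sequence alone: a C with C or G at −2 and C or T at −1, or a G with A or G at +1 and C or G at +2, with at least 1000 base calls of sufficient quality in every library. The rule found 139 positions, all of which met that minimum, among 674 positions measured at this depth and 426 of those at C:G base pairs. The reporter was carried into the cells on a retroviral vector, so positions count from the first base of its coding sequence and no coordinate in the mouse genome applies.

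AID (activation-induced cytidine deaminase) turns cytosine in single-stranded DNA into uracil and starts somatic hypermutation of antibody genes in B cells. A uracil that is copied leaves a C-to-T change, or G-to-A when the uracil lay on the other strand, whereas removal of the uracil by UNG (uracil-DNA glycosylase) leaves an abasic site that can be copied into other bases. AID favours WRC (W is A or T), in particular WRCY, and disfavours SYC, which is why these motifs are called hotspots and coldspots. Ugi is a phage protein that blocks UNG.

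All libraries came from NIH-3T3, a mouse fibroblast line, transduced with the reporter, with AID-ER or AIDE58Q-ER, and with a further vector: Empty (the Control arm), Ugi or UNG. AID-ER is AID joined to an estrogen receptor domain that answers to OHT (4-hydroxytamoxifen), and the AID-E58Q form lacks catalytic activity and so measures the background of amplification and sequencing. Every group, the inactive ones included, was kept in 1 µM OHT for 11 days before the reporter was amplified. The 6 combinations had 3 libraries each, numbered as experiments 1 to 3; whether these were separate transductions is not stated, so the p-values measure the spread between libraries, which may be partly technical. The enzymes were delivered by retroviral vectors into fibroblasts, not at their natural loci in B cells.

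Among the 139 members 60 were C and 79 were G in the coding strand, and 45 lay in a CpG. Read on the strand that carries the C, 39 were CCC, 31 CTC, 47 GCC and 22 GTC. A transition would change the amino acid at 92 members, leave it unchanged at 42 and create a stop codon at 5. The members spread from position 70 to position 697, with a median distance of 8 bases and a largest distance of 27 bases to the nearest WRCY or RGYW base; 12 were direct neighbours of such a base. Libraries held 24915866 to 95011754 calls in all. The lowest coverage of a member in any library was 1180 calls, at position 697, and 129 members had at least 5000 calls in every library. At the median coverage of members, a count of 0 allows up to 0.209 changes per 10000 calls in the deepest library and 0.79 in the shallowest. Those limits cover counting error only, since PCR products without molecular identifiers are not independent molecules.

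The stretches around 8 members are shown because the results turn on them: the first 4 are the members that passed the test in at least 1 comparison, and the last 4 carry the highest transition background. Each runs 5′ to 3′ along the coding strand from 10 bases before the member to 10 after it, as the deposited reference bases give them, with the SYC or GRS triplet in capitals.
position 205: cctgtcccCTCagttcaccta
position 347: acccaggaCTCctccctgcag
position 506: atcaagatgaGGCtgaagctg
position 625: catcacctCCCacaacgagga
position 504: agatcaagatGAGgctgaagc
position 330: gcggcgtggtGACcgtgaccc
position 159: agctgaaggtGACcaagggtg
position 336: tggtgaccgtGACccaggact

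Position 205 is the first base of codon 69, where C>T turns CAG into a stop codon. Position 347 is the second base of codon 116 (TCC), position 506 the second base of codon 169 (AGG) and position 625 the first base of codon 209 (CAC), and a transition at each of these changes the amino acid. The member is the last of the 3 capitals where it is a C and the first where it is a G. Position 506 directly neighbours a WRCY or RGYW base and position 205 lies 2 bases from one.

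The first question was whether active AID left transitions at coldspots at all. In the Control arm the mean transition frequency over the 139 members was 2.47, 1.77 and 3.68 per 10000 calls with AID in experiments 1, 2 and 3, against 2.34, 1.65 and 2.92 with AID-E58Q. The AID means were higher in each experiment, by a factor of 1.13 (geometric mean; mean log2 0.17 ± 0.14, SD, n = 3), but the median over members was lower with AID in experiment 2: its ratio was 1.15, 0.962 and 1.15. Members with a higher AID than AID-E58Q value numbered 68, 69 and 87 of 139. No member passed the test (edgeR's quasi-likelihood test, Benjamini-Hochberg adjustment over the 674 positions, threshold 0.05), against 2.52% of all positions in this comparison; 1 member (0.719%) had an unadjusted p under 0.05, against 11.4% of all positions, DESeq2 called 0 and gave no adjusted p for 101 members, and the median log2 difference was 0.08 over members and 0.27 over all positions. At 8 members the 3 AID libraries all lay above the 3 AID-E58Q libraries, which is 5.76% of members against 12.8% of all positions; at 2 members (1.44%) they all lay below, against 1.48%.

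In the UNG arm no excess was seen in the mean. The member means were 2.6, 3.45 and 3.21 per 10000 calls with AID and 2.94, 2.79 and 3.41 with AID-E58Q, so AID was higher in experiment 2 and lower in experiments 1 and 3. Their ratio was 1.01 (mean log2 0.01 ± 0.26, SD, n = 3). By edgeR, 0 members and 0% of all positions passed the test, with 3 members (2.16%) at an unadjusted p under 0.05 against 6.53% of all positions, 2 of them higher with AID and 1 lower. Without experiment 3 position 130 passed, higher with AID, against 2.52% of all positions. DESeq2 called position 472 (lower with AID), against 0.148% of all positions lower, and gave no adjusted p for 121 members. The groups were fully separated with AID on top at 3 members, positions 350, 416 and 541 (named after their values were seen), or 2.16% of members against 7.42% of all positions. With AID below they were fully separated at 6 members, positions 203, 330, 404, 409, 472 and 625 (also named after their values were seen), or 4.32% of members against 2.23% of all positions.

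In the Ugi arm, where UNG is blocked, the member mean was higher with AID in every experiment and by the most in experiment 3. It was 1.61, 1.37 and 4.97 per 10000 calls with AID against 1.16, 1.32 and 2.58 with AID-E58Q. The ratio was 1.39, 1.04 and 1.93 in experiments 1 to 3, with a geometric mean of 1.41 (mean log2 0.49 ± 0.45, SD, n = 3). Within experiment 2 the excess was 0.0531 per 10000, and the median over members was lower with AID there (0.872 against 0.988). Members with a higher AID than AID-E58Q value numbered 88, 70 and 125 of 139 in the 3 experiments. In the library of Ugi AID in experiment 3, 67 members (48.2%) reached their highest transition frequency of all 18 libraries, beside 95.5% of the other C:G positions and 6.45% of A:T positions. The mean over A:T positions was 1.7 per 10000 in that library and 1.75 in its AID-E58Q partner.

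**Figure D1:**
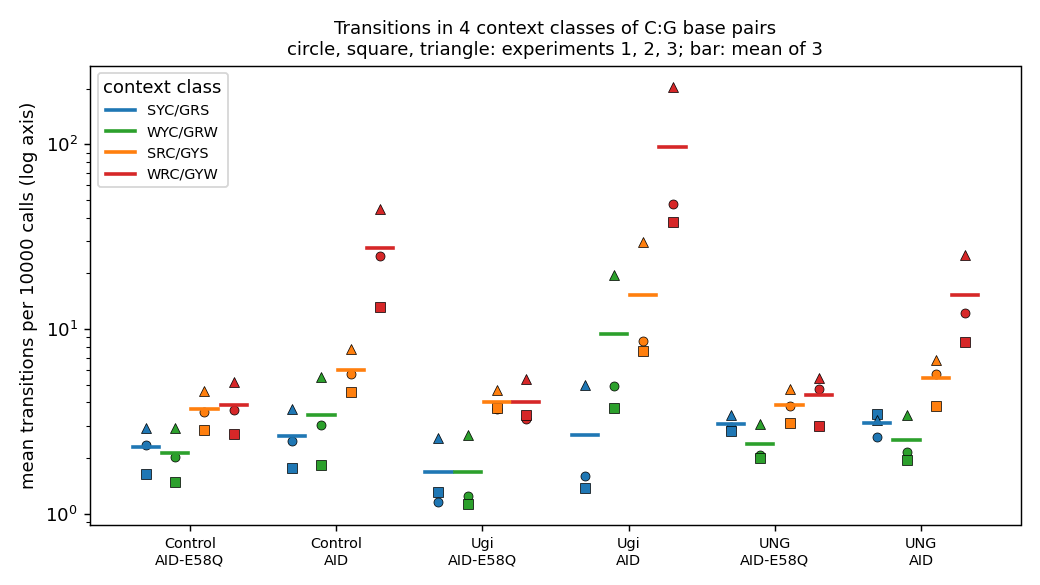
Mean transitions per 10000 calls (log axis) in each of the 18 libraries for the 139 SYC/GRS coldspots and 3 other context classes of C:G positions; markers are experiments 1, 2 and 3 and bars the means of 3. In the Ugi AID libraries the coldspots reached 1.61, 1.37 and 4.97, while the WRC/GYW class reached 47.4, 38 and 205.

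Set beside the other C:G contexts, the coldspots held the lowest share of calls in this arm. Transitions in Ugi rose with AID at 3 of 139 coldspots (2.16%), 38 of 96 WYC/GRW positions (39.6%), 47 of 124 SRC/GYS positions (37.9%) and 61 of 67 WRC/GYW positions (91%), where all positions together gave 22.1%. Median fitted folds in the same order were 1.49, 4.46, 3.33 and 25.7, and the A:T positions had 0.956. The difference between classes was not tested; the classes are described by their counts and medians. The mean excess of AID over AID-E58Q at coldspots was 1.01%, 0.153% and 1.2% of the excess at WRC/GYW in experiments 1, 2 and 3. In the Control arm it was 0.633%, 1.16% and 1.93%. In the UNG arm, where the coldspot excess was negative in experiments 1 and 3, it was −4.58%, 11.9% and −1.05%. The largest coldspot excess in Ugi, 2.39 per 10000, came from experiment 3, in which the WRC/GYW excess was also at its largest, 200.1 per 10000.

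The 3 coldspots that rose with AID in Ugi were positions 205, 347 and 506, each in a different way. Position 205 had 1.16, 9.16 and 11.9 C>T changes per 10000 calls with Ugi and AID in experiments 1 to 3, and 1.49, 2.14 and 1.89 with Ugi and AID-E58Q. It was high in experiments 2 and 3 only, so the groups overlap through experiment 1. In the 12 libraries without Ugi it lay between 1.23 and 2.48. The fit gave a log2 difference of 2.00 (SE 0.64, adjusted p = 0.0275).

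Position 347 had 0.996, 0.822 and 1.88 per 10000 with Ugi and AID and 0.217, 0.206 and 0.177 with Ugi and AID-E58Q. The groups do not overlap here, but the background rests on 1, 1 and 2 calls. In the other arms, AID-E58Q gave 0.464 to 0.927 per 10000 at this base, so the Ugi AID-E58Q libraries were the lowest of all groups, and 1 of the 3 Ugi AID values lay within the background range of the other arms. The log2 difference was 2.59 (SE 0.61, 95% interval 1.32 to 3.86, adjusted p = 0.00398).

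Position 506 had 1.37, 0.256 and 7.69 G>A changes per 10000 with Ugi and AID, against 0.271, 0.769 and 0.222 with Ugi and AID-E58Q. Experiment 3 carried the difference, with 76 calls in 98856, and in experiment 2 the AID-E58Q library was the higher. With AID it also reached 1.34, 0.762 and 2.68 in the Control arm, where AID-E58Q gave 0.445, 0 and 0.956. In Ugi the log2 difference was 2.98 (SE 1.03, adjusted p = 0.0423), the largest among members, and in Control 1.56 (SE 0.93, adjusted p = 0.7).

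How many coldspots passed depended on single experiments. Leaving out experiment 1 or experiment 3 ended all 3 calls. Leaving out experiment 2 gave 3 calls, at positions 272, 347 and 506, or 2.16% of members against 18.8% of all positions. Position 347 alone was called without Ugi AID of experiment 3 or without Ugi AID-E58Q of experiment 1 or 2. That is 0.719% of members, against 12.2%, 14.7% and 14.2% of all positions higher in those fits. Leaving out Ugi AID of experiment 1 or 2 gave 5 and 7 calls, or 3.6% and 5.04% of members. Of all positions, 26.9% and 28.5% were higher there. With the experiment number as a block, which the libraries' shared deviations warrant, edgeR called 9 members, all higher with AID: positions 190, 205, 272, 347, 450, 506, 591, 613 and 634, with log2 differences of 1.23 to 2.88 and adjusted p-values of 0.00154 to 0.0423. That is 6.47% of members, against 30.9% of all positions higher in the same blocked fit. Of these, 6 had T at −1 (CTC or GTC), as did 53 of all 139 members. When TMM factors from the substitution counts replaced coverage alone, the median over all positions moved by −0.83 on the log2 scale. The split became 1 higher (position 347) and 2 lower (positions 243 and 573), against 16.6% and 2.08% of all positions.

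**Figure D2:**
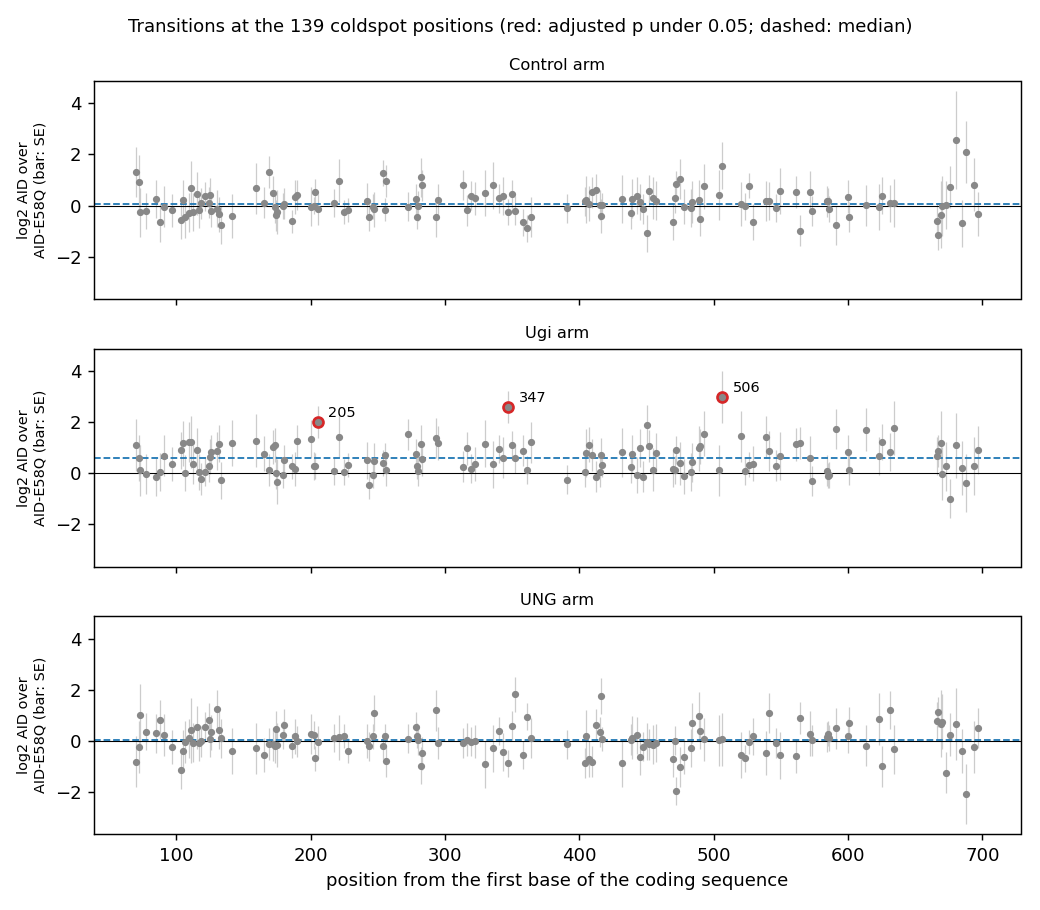
Log2 ratio of transitions, AID over AID-E58Q, at the 139 coldspot positions along the reporter in the Control, Ugi and UNG arms, with bars of 1 SE; red points passed the adjusted threshold and dashed lines are medians. The median was 0.08 in Control, 0.57 in Ugi and 0.03 in UNG, and positions 205, 347 and 506 passed in Ugi.

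Across the Ugi comparison the fitted folds ran from 0.499 (position 676, 0.646, 1.24 and 2.91 per 10000 with AID against 1.74, 3.04 and 4.6) to 7.92 (position 506). The median log2 difference was 0.57 over members and 0.68 over all positions. The log2 difference was above 0 at 119 of 139 members (85.6%), against 74.9% of all positions. Next after the called members came position 450 (log2 1.90, SE 0.75, adjusted p = 0.0791) and position 634 (1.76, SE 1.05, adjusted p = 0.292). Position 450 had 0.751, 0.563 and 3.36 per 10000 with AID and 0, 0.23 and 0.75 with AID-E58Q, and position 634 had 0.89, 0.362 and 9.05 against 0, 0 and 2.22. The lowest log2 differences after position 676 were at positions 243 (−0.48) and 688 (−0.39). The limits of the fit without the experiment block, which hold the spread between libraries as well as the depth, give a rough bound on what could be missed. The upper 95% limit of the fitted fold was under 8 at 120 of 139 members in Ugi, 134 in Control and 132 in UNG. Its median was 4.37, 2.81 and 2.59, and its highest value 35.2, 97.9 and 12.4. In Control the largest log2 differences were at positions 680 (2.56, SE 1.93), 688 (2.10, SE 1.22) and 506, and in UNG at positions 352 (1.82, SE 0.68), 416 (1.75, SE 0.70) and 130 (1.23, SE 0.75); the adjusted p-values of these 6 values lay between 0.472 and 0.997.

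Among the 12 direct neighbours of a WRCY or RGYW base (positions 73, 133, 179, 217, 283, 391, 439, 506, 572, 584, 601 and 688), only position 506 passed in Ugi, and the others had log2 differences of −0.39 to 0.74. The neighbours' mean was 1.29, 1.03 and 3.66 per 10000 with Ugi and AID, which was 1.36, 0.606 and 1.77 times that with Ugi and AID-E58Q. The ratio of AID over AID-E58Q in Ugi had a geometric mean of 1.13 for these 12, 1.26 for the 54 members within 5 bases of a hotspot and 1.51 for the 85 farther away, with no test between the sets. In experiment 2 the ratio of the 12 neighbours, 0.606, was below those of the other sets, 0.982 and 1.09.

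By triplet, the same ratio in Ugi was 1.09, 1 and 2.01 for CCC, 1.36, 0.736 and 1.46 for GCC, 1.68, 1.66 and 1.99 for CTC and 1.42, 0.906 and 2.34 for GTC in experiments 1 to 3. CTC was above 1.6 in every experiment by the mean, and at 1.48, 1.49 and 1.85 by the median over its members. The CTC mean includes high-background members described below, such as position 504. In the UNG arm the CTC ratio of means was 0.962, 1.63 and 0.929. No triplet was tested against another. The 15 members that are C with T at −1, which include positions 205 and 347, had a mean of 0.967, 1.24 and 3.43 per 10000 with Ugi and AID against 0.776, 1.03 and 0.86 with Ugi and AID-E58Q. In experiment 2 the excess of this mean rested on position 205, whose values are given above.

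**Figure D3:**
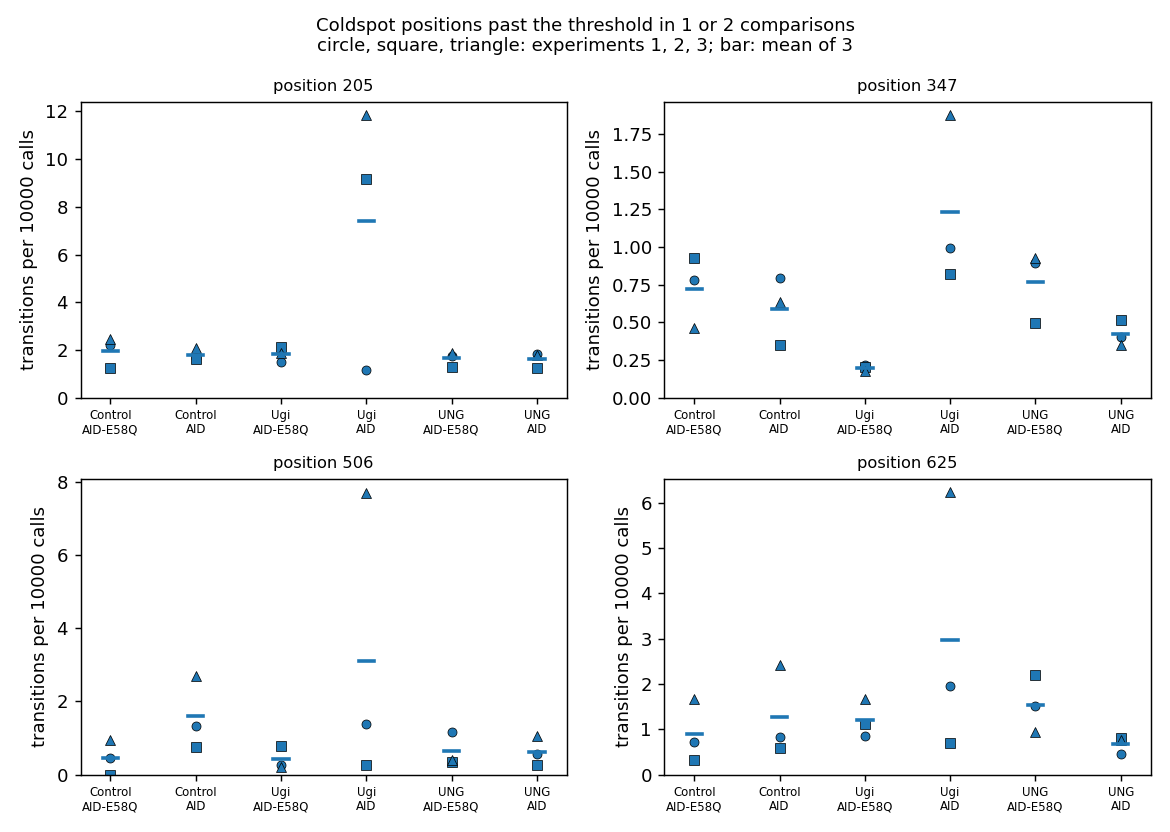
Transitions per 10000 calls at positions 205, 347, 506 and 625 in each library; markers are experiments 1, 2 and 3 and bars the means of 3. Position 205 reached 9.16 and 11.9 in experiments 2 and 3 of Ugi AID, and positions 506 and 625 were highest in experiment 3 of Ugi AID, at 7.69 and 6.23.

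The next question was whether the state of UNG changed coldspot transitions in cells with active AID. Between Ugi and Control with AID, 0 members and 0% of all positions passed, with 6 members (4.32%) at an unadjusted p under 0.05 against 19.9% of all positions, and a median log2 difference of 0.32 over members and 0.45 over all. DESeq2 called position 205, higher in Ugi, against 9.64% of all positions, and gave no adjusted p for 100 members. With the experiment block 4 members passed: positions 205, 564 and 591 were higher in Ugi and position 313 was lower, against 16.6% and 0.148% of all positions in that fit. Without experiment 3 there were 4 calls, all lower in Ugi: positions 159, 313, 432 and 504. That is 2.88% of members against 0.593% of all positions. Without Ugi AID of experiment 1 or 2 there were 1 and 2 calls, all higher, against 6.23% and 9.79% of all positions. The mean and the median over members went opposite ways: the ratio of means was 0.649, 0.774 and 1.35 (geometric mean 0.88), and the ratio of medians 0.901, 0.979 and 1.76 (geometric mean 1.16). Between UNG and Control with AID, 0 members and 0% of positions passed, with 5 members (3.6%) at an unadjusted p under 0.05 against 2.97% of all positions, and 0 called by DESeq2; the ratio of means was 1.05, 1.95 and 0.872, and without experiment 3 positions 364 and 667 were higher in UNG.

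Ugi set against UNG gave 3 higher members, 2.16% against 13.9% of all positions. Position 205 was 1.85, 1.24 and 1.8 per 10000 in UNG AID and differed by log2 2.18 (SE 0.63, adjusted p = 0.027). Position 347 was 0.403, 0.518 and 0.353 there, with a log2 difference of 1.51 (SE 0.49, adjusted p = 0.0431). Position 625 had 1.96, 0.7 and 6.23 per 10000 in Ugi AID and 0.449, 0.81 and 0.776 in UNG AID, so the groups overlap through experiment 2; the log2 difference was 2.11 (SE 0.70, adjusted p = 0.0494). With the experiment block 7 members passed, 6 higher in Ugi (positions 111, 190, 205, 347, 506 and 625) and 1 lower (position 361), against 23% and 0.445% of all positions in that fit. DESeq2 called 2 members, position 205 (higher, adjusted p = 0.00376) and position 361 (lower, adjusted p = 0.0487), against 16.8% and 0.297% of all positions; positions 625 and 347 had adjusted p-values of 0.0572 and 0.0771 there. Without experiment 1, or without any 1 of the 3 UNG AID libraries, no member passed. Without Ugi AID of experiment 3, 2 passed, both lower in Ugi (positions 159 and 697), or 1.44% of members against 0.297% of all positions. Without Ugi AID of experiment 1 or 2, 5 and 7 passed, all higher. That is 3.6% and 5.04% of members against 17.8% and 21.4% of all positions. Without experiment 2 position 625 alone passed, higher in Ugi, against 6.82% of all positions. Without experiment 3 the calls were 6 other members, all lower in Ugi: positions 130, 159, 336, 504, 631 and 697. That is 4.32% of members against 1.04% of all positions. TMM factors gave 1 higher and 6 lower members, against 12.3% and 1.48% of all positions. Under these factors the median over all positions moved by −0.60 on the log2 scale.

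In the inactive libraries no coldspot passed between Ugi and Control or between UNG and Control (0% of all positions in both), with 2 and 3 members (1.44% and 2.16%) at an unadjusted p under 0.05, against 1.19% and 1.34% of all positions. Interaction terms for Ugi and UNG with AID likewise gave 0 members and 0% of all positions, with 6 and 7 members (4.32% and 5.04%) at an unadjusted p under 0.05 against 7.42% and 1.78% of all positions, so no difference in the AID effect between arms was shown for a single coldspot. Averaged over the 3 arms, AID over AID-E58Q gave 0 members, against 19.3% of all positions, with 2 members (1.44%) at an unadjusted p under 0.05 against 25.4%. With the experiment block position 506 passed (log2 1.67, adjusted p = 0.0076, where 26.4% of all positions were higher). It also passed without experiment 2, without Ugi AID of experiment 2 and without Control AID-E58Q of experiment 3. In those fits 16.6%, 23.3% and 19.4% of all positions were higher. Without experiment 3 position 504 was lower in Ugi than in Control among the inactive libraries, against 0.297% of all positions lower. DESeq2 called 0 members in the inactive libraries, in the interaction with Ugi and in the mean of arms. In the interaction with UNG it called position 472, lower, against 0.148% of all positions lower.

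Position 472 went the other way in the UNG arm. This G of a GAG codon had 4.4, 2.63 and 2.65 transitions per 10000 with UNG and AID and 10.4, 16.8 and 10.8 with UNG and AID-E58Q, and the groups do not overlap. The log2 difference of −1.97 (SE 0.54) missed the threshold in the main fit (adjusted p = 0.103) and passed with the experiment block (adjusted p = 0.0125, where 0.297% of all positions were lower) and in DESeq2 (adjusted p = 0.000389). In the Control arm the same base had 5.83, 7.38 and 8.69 with AID and 5.11, 4.07 and 3.18 with AID-E58Q, and the interaction of UNG with AID had an adjusted p of 0.879 in edgeR and 0.00828 in DESeq2.

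Position 472 belongs to a group of 16 members whose transition frequency averaged over 5 per 10000 in the 9 AID-E58Q libraries, a limit set after the values were seen; the median member had 1.22. Values of these 16 ran from 5.24 to 17.9, and the highest member below the limit had 4.93. All 16 were G followed by A in the coding strand, that is GAG or GAC, and 12 lay in a CpG. In all, 38 members were such a G, and the rest of these stayed below the limit. None of the 15 C members with T at −1, the same triplets on the other strand, was among them. The highest were positions 504 (17.9), 330 (17.7) and 159 (15.3).

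At these bases the level varied widely between libraries of both AID forms. Position 504 had 33.1, 13.6 and 35.2 per 10000 in Control AID and 26.3, 11.4 and 24.3 in Control AID-E58Q. In Ugi it had 1.92, 2.47 and 21.5 with AID and 0.815, 1.3 and 21.3 with AID-E58Q, and in UNG 10.1, 46 and 20 with AID and 22.9, 28.3 and 24.3 with AID-E58Q. It was therefore low in experiments 1 and 2 of both Ugi groups and high in experiment 3 of both. Position 159 showed the same order, with 1.5, 1.57 and 33 in Ugi AID and 2.7, 2.76 and 9.23 in Ugi AID-E58Q, and so did position 330, with 7.49, 1.55 and 39.3 in Ugi AID and 1.78, 2.29 and 17.2 in Ugi AID-E58Q.

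**Figure D4:**
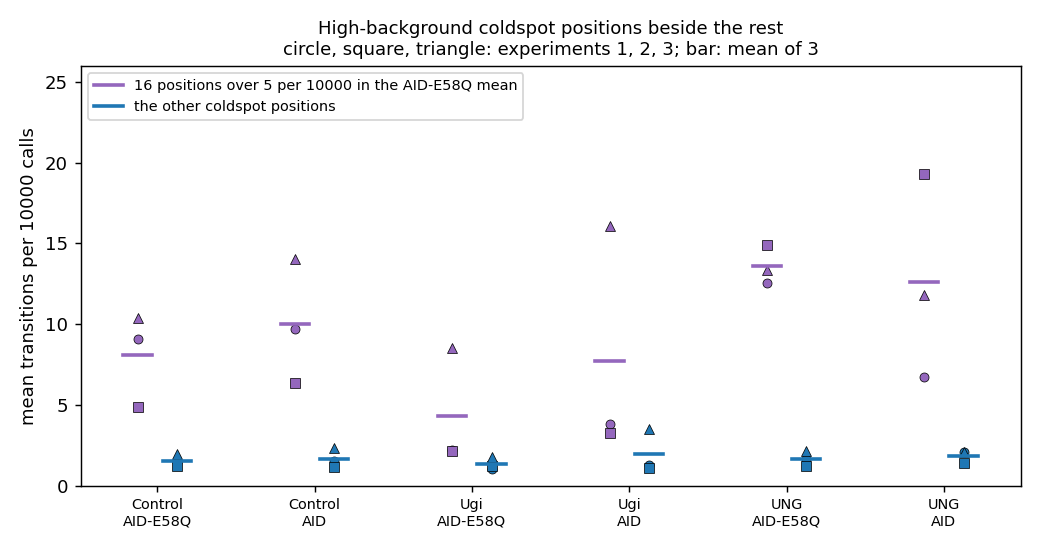
Mean transitions per 10000 calls in each library for the 16 coldspot positions with an AID-E58Q mean over 5 per 10000 and for the other 123; markers are experiments 1, 2 and 3 and bars the means of 3. The 16 ranged from 2.17 to 19.3 and the other 123 from 1.02 to 3.53.

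The mean over the 16 was lowest, 2.17 to 3.85 per 10000, in the 4 libraries of Ugi from experiments 1 and 2, whichever AID form they carried, and highest, 19.3, in UNG AID of experiment 2. They supplied between 18.9% and 64.4% of the summed transition level of all members in a library, and the means over members in the comparisons above include them. Without them, the geometric mean ratio of Ugi over Control with AID was 1.08 in place of 0.88, and that of AID over AID-E58Q was 1.33 in Ugi, 1.06 in Control and 1.11 in UNG; in experiment 2 the latter ratio was then below 1 in Ugi (0.934) and Control (0.954). Members over this limit made up 11.5% of coldspots, beside 7.72% of all positions. What sets the level of these bases in a library was not tested.

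By strand, transitions were more frequent at the G members. In Control AID-E58Q the 79 G members had 3.32, 2.34 and 4.21 per 10000 and the 60 C members 1.05, 0.742 and 1.22. The gap was smaller for members with C at −1 (1.53, 1.2 and 2.25 at G, 1.11, 0.765 and 1.32 at C) and larger for those with T at −1 (5.25, 3.56 and 6.31 at G, 0.87, 0.674 and 0.926 at C). The direction was the same in the AID libraries of this arm, where G members had 3.59, 2.55 and 5.49 and C members 1.01, 0.739 and 1.29.

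The last question concerned transversions, which uracil removal by UNG can leave. In the Control arm members had 2.24, 1.74 and 1.83 transversions per 10000 calls with AID and 1.87, 1.34 and 1.6 with AID-E58Q, higher with AID in each experiment by a geometric mean factor of 1.21 (mean log2 0.28 ± 0.10, SD, n = 3). No member passed, against 3.41% of all positions, and 0 members had an unadjusted p under 0.05, against 71 of the 674 positions. In Ugi the member means were 2.24, 1.77 and 1.59 with AID and 2.16, 1.86 and 1.52 with AID-E58Q, a ratio of 1.01 (mean log2 0.01 ± 0.08, SD, n = 3); 0 members and 0% of all positions passed, with 1 member (0.719%) at an unadjusted p under 0.05 against 0.593%. At WRC/GYW the Control AID values were 13.6, 7.53 and 25.1 per 10000, so the coldspot excess of 0.225 to 0.409 per 10000 in this arm was 0.974% to 7.12% of the WRC/GYW excess.

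In the UNG arm 1 library stood apart. Members had 6.32, 1.53 and 1.77 transversions per 10000 with AID and 2.09, 1.37 and 2.33 with AID-E58Q, a ratio of 3.03, 1.11 and 0.762 in experiments 1 to 3. The geometric mean was 1.37 with experiment 1 and 0.92 without it. No member passed, against 3.12% of all positions, with 4 members (2.88%) at an unadjusted p under 0.05 against 8.46%. The median log2 difference of 0.61 over members, beside 0.31 over all positions, includes that library.

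The excess in UNG AID of experiment 1 lay in C>A and G>T changes. Their mean over members was 5.52 per 10000 there and 0.941 to 1.95 in the other 17 libraries, while C>G and G>C changes were at 0.805, beside the 0.719 to 0.814 of other libraries of that experiment. Of the members, 116 (83.5%) had their highest C>A or G>T value of the 18 libraries in this one, beside 39% of the other C:G positions. Every coldspot triplet was raised: CTC to 9.42, GTC to 5.07, GCC to 4.89 and CCC to 3.42 per 10000, which is 5.92, 3.3, 3.73 and 3.56 times the median of the other libraries. The 45 CpG members reached 7.83 and the 94 others 4.41. The other C:G contexts were raised in the same library, WYC/GRW to 5.99, SRC/GYS to 4.32 and WRC/GYW to 5.83. That was 3.87, 2.21 and 3.9 times the median of the other 17 libraries, beside 4.24 for all members. At WRC/GYW the highest of those libraries had 9.96, so this library did not have the highest mean there. All transversions at A:T positions were 1.89 per 10000 beside 1.46 to 1.69 in the other libraries of experiment 1. The AID libraries of experiments 2 and 3 in this arm had 1.11 and 1.38 at members, within the range of the other groups.

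**Figure D5:**
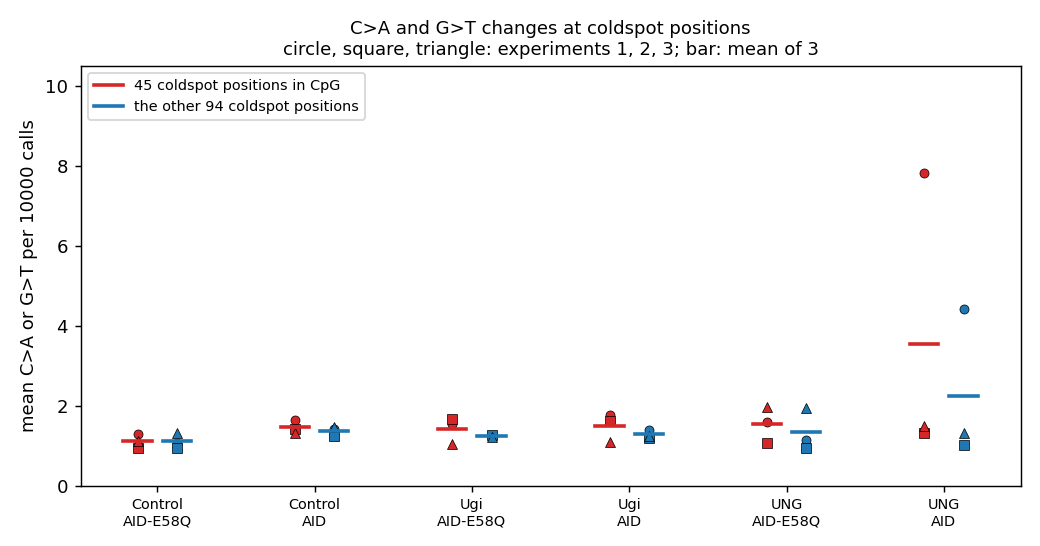
Mean C>A or G>T changes per 10000 calls in each library for the 45 coldspot positions in CpG and the other 94; markers are experiments 1, 2 and 3 and bars the means of 3. Experiment 1 of UNG AID stands at 7.83 and 4.41, above all other libraries.

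Of the remaining transversion comparisons, Ugi over Control with AID gave 0 members against 2.52% of all positions, and Ugi over UNG with AID 0 members against 2.97%, with 1 and 9 members (0.719% and 6.47%) at an unadjusted p under 0.05 against 7.72% and 9.35%; all 9 were lower in Ugi. The mean of the 3 arms gave 0 members against 4.9% with 4 (2.88%) at an unadjusted p under 0.05 against 11.6%, and with the experiment block position 613 passed (log2 0.80, adjusted p = 0.0275, where 8.75% of all positions were higher). UNG over Control gave 0 members and 0% with AID, where 7 (5.04%) had an unadjusted p under 0.05 against 3.26% of all positions, and the ratio of member means was 2.82, 0.874 and 0.97. In the inactive libraries Ugi over Control and UNG over Control gave 0 members and 0% of positions, with 0 members at an unadjusted p under 0.05 against 0.742% and 0.148%. The interaction of Ugi with AID gave 0 members against 0.148% of positions and that of UNG 0 members and 0%, again with 0 members at an unadjusted p under 0.05, against 5.79% and 0.742%. DESeq2 called 0 members in all 11 transversion comparisons, with no adjusted p for 14 to 125 members in 5 of them. The highest transversion backgrounds among members were at positions 77 (4.07 per 10000 over the 9 AID-E58Q libraries), 591 (3.45) and 358 (3.36). Position 77 was at 7.03 to 9.43 in all 6 libraries of experiment 3 and at 0.602 to 5.44 in the other 12, in both AID forms alike.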

How the data were processed

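Substitutions in PCR-amplified reporter DNA were counted in 18 libraries, 3 for each of 6 groups given by the sample titles. The deposited table holds, per the file headers, counts of calls with a Phred quality over 20 and of each substitution, per position and library. The authors' fractions in that table equalled the ratio of the counts, so only the counts were used. Software named by the submitters' processing notes was Novoalign 2.07.04, SAMtools 0.1.11 and CASAVA 1.7, with no roles; how reads were aligned is not given in the sources used here. Per the labels' protocols, 25 and then 10 cycles of PCR preceded sequencing.

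Positions with fewer than 1000 calls in any library were left out. Transitions and transversions were fitted with edgeR 4.0.16 (R 4.3.3, quasi-likelihood test) over all 674 positions and 18 libraries. Log coverage was the offset, and p-values had Benjamini-Hochberg adjustment. The fit was tested on simulated counts drawn independently for each library. That test therefore does not cover deviations shared by the libraries of an experiment. Levels are changes per 10000 calls averaged over positions, and their ratios were taken within experiments, with no test. The members and lists were chosen with earlier results of these data known.

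Positions named were the members past the threshold; the 5 largest and 3 smallest AID effects in Ugi and the 3 largest in Control and UNG; the 3 highest backgrounds for each kind of change; the 12 neighbours of hotspots; and members called under an alternative that called at most 5. Others are named as chosen after their values were seen, including those of longer lists of calls under an alternative.

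The experiment number was taken from the titles. Deviations from the group means correlated between all 45 same-numbered pairs of libraries (r 0.227 to 0.775). The number therefore pairs libraries, and the blocked fit is given beside results it changes. Between different numbers the median was −0.38. Subtracting group means makes these negative on average once same-numbered ones are positive, so they are no separate evidence. Alternatives were DESeq2 1.42.0, TMM factors, other filters, only the compared groups, the experiment block, and each experiment or library left out.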

Additional observations from a re-analysis of the deposited data

Results flagged for a closer look

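At position 450 (C of a GCC triplet, a synonymous change) transitions were lower with AID than with AID-E58Q in all 3 experiments of the Control arm (mean difference −0.519 per 10000) and higher in all 3 of the Ugi arm (mean difference 1.23), a gap of −1.75 per 10000. The interaction of Ugi with AID in edgeR had an adjusted p of 0.58 there. At position 625 transitions were higher with AID in all 3 experiments of the Control arm (0.375 per 10000) and lower in all 3 of the UNG arm (−0.866), a gap of 1.24 per 10000, and the interaction of UNG with AID in edgeR had an adjusted p of 0.997. The opposite signs themselves were not tested. Both rest on few calls in most libraries.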

How the results depend on the processing

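The 11 comparisons were rerun for each kind of change, giving 400 recounts, of which 361 stayed within 1.5 times the reported count. The reported count was above 0 only for AID over AID-E58Q in Ugi and for Ugi over UNG with AID, both in transitions. Elsewhere it was 0, and a recount stayed only if it was 0 again. Direction did not enter: TMM factors for AID over AID-E58Q in Ugi stayed at 3 calls, of which 1 was higher and 2 lower. For AID over AID-E58Q in Ugi, transitions, the 3 calls became 9 with the replicate block and 1 with only the compared groups. Of all positions, 30.9% and 10.4% were higher in these fits. When experiments or libraries were left out there were 0 to 7 calls. Where leaving out gave a call, 12.2% to 28.5% of all positions were higher. For UNG the 0 calls became 1 with DESeq2, 1 with TMM factors and 1 with the replicate block, all position 472 lower with AID. Of all positions, 0.148%, 0.297% and 0.297% were lower in these fits. With an experiment or library left out there were 0 to 1 calls, the 1 beside 2.52% of all positions higher. For the mean of 3 arms the 0 calls became 1 lower with TMM factors (position 243), 1 higher with the replicate block and 0 to 1 on leaving out. Of all positions, 1.63% were lower with TMM factors and 26.4% higher with the block. Where leaving out gave a call, 16.6% to 23.3% were higher. Ugi over Control with AID gave 1 with DESeq2 (position 205), where 9.64% of all positions were higher. TMM factors gave 2 lower (positions 169 and 313), where 0.297% of all positions were lower. There were 4 with the replicate block and 0 to 4 on leaving out, with the shares given above. UNG over Control gave 0 to 2 on leaving out, the 2 beside 0.297% of all positions higher. Ugi over UNG gave 2 with DESeq2 (1 higher, 1 lower), 7 with TMM factors (1 higher, 6 lower) and 7 with the replicate block. It gave 0 with only the compared groups and 0 to 7 on leaving out. For this and the comparisons that follow, the shares of all positions in fits that called a member are given above. Ugi over Control in the inactive libraries gave 0 to 1 on leaving out, and the interaction of UNG with AID 1 with DESeq2. For transversions, the mean of arms gave 1 with the replicate block. The replicate block changed no other count. The cause of these changes was not tested. All 90 alternative values of the mean ratios stayed within 1 SD of the reported value. They include those without the 16 high-background members, an alternative chosen after seeing the data. That SD is the one between the 3 experiments on the log2 scale, and leaving out 1 experiment cannot move the mean so far. A ratio could also change direction within it: Ugi over Control with AID, transitions, was 0.88 by means and 1.16 by medians over members. Members with low coverage near the 3′ end and backgrounds of 1 to 3 calls limit what single positions can show.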
